A study of Zea mays with 6 samples.

Results

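DNase I hypersensitive sites (DHSs) of husk that had no counterpart in young seedling stem were examined. The members were chosen by the measured positions of the called intervals: a DHS of husk was taken when it overlapped no DHS of V2-IST by 1 bp or more and the gap between its edge and the nearest V2-IST DHS was above 5000 bp. Of the 15261 husk DHSs, 2048 met this rule (13.4%, Wilson interval 12.9% to 14.0%), out of 33746 DHSs in both lists. A further 1060 husk-only DHSs lay within 5000 bp of a V2-IST DHS and are called close, and 12153 overlapped a V2-IST DHS and are called shared.

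The material was the maize inbred line B73. Husk was the soft inner layer of leaves around the ear, taken when silks had emerged by 2 to 5 cm, and V2-IST was the inner stem of seedlings at the V2 stage, without outer leaves and exposed blades. Husk was represented by 3 libraries from 2 biological replicates, the first of which had a second, technical library, and V2-IST by 2 libraries from 2 biological replicates, each from pooled plants. A library of DNase I-digested naked DNA from husk was the control for both tissues. The deposited lists give the positions of 1 integrated set of DHSs for husk and 1 for V2-IST, with neither a peak height nor values of single replicates. Differences between sets of DHSs are therefore described and not tested, they are not shown to exceed the spread between replicates, and all intervals (95%) cover counting error alone. Intervals of medians come from binomial order statistics and those of densities from the Poisson distribution.

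DNase I cuts DNA where nucleosomes are sparse. Such sites mark promoters and enhancers, the stretches at which transcription factors bind and from which genes are switched on. In maize, enhancers can lie far from the gene they act on, with retrotransposons in between, and many are open in some organs and not in others. Husk leaves are modified leaves that wrap and protect the ear, whereas the inner stem of a seedling holds young, still growing tissue. A DHS of husk far from any V2-IST DHS is thus a place where open chromatin was called in the reproductive-stage organ, and where the nearest call in the seedling tissue belongs to another site. It does not mean that the chromatin was closed in V2-IST, because a peak in 1 V2-IST replicate alone would not be in the list. The study also counted overlaps between single replicates. More peaks of the first husk replicate overlapped each V2-IST replicate than overlapped the second husk replicate. Peaks of the second husk replicate overlapped the first husk replicate most often. The second husk replicate had the fewest peaks of all replicates and the second V2-IST replicate the most. Such counts depend on the number of peaks, so they do not show that husk replicates resembled V2-IST more than each other. Genes at the positions given here were not analysed here, and the sequences of the DHSs are not shown, because an annotation and a genome of AGPv4, the build of the coordinates, were not used here.

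The mirror set, V2-IST-only DHSs more than 5000 bp from any husk DHS, was larger. The husk members were 13.4% of their list and the mirror set was 23.3% of its own (4316 of 18485, interval 22.7% to 24.0%). Shared DHSs were about as many in both lists, 12153 in husk and 12082 in V2-IST, while the V2-IST list is the longer one. The share of husk members was below the V2-IST share on each of the 10 chromosomes. All chromosomes come from the same pair of lists, so this is no separate support. This order did not hold under another choice of V2-IST DHSs. The V2-IST list was then limited to its widest DHSs, as many as the husk list holds. Far from the other list were 3231 husk DHSs (21.2%, 20.5% to 21.8%) and 3071 V2-IST DHSs (20.1%, 19.5% to 20.8%), with intervals that overlap. Leaving out V2-IST DHSs can only add husk members, so the direction of their change was fixed. That choice changes the length of the V2-IST list and its widths together, which cannot be told apart here. The lists carry no read depth, and the depth of the libraries was not analysed here.

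The distance to the nearest V2-IST DHS was used by the rule and is given as a description. The median distance was 41593 bp, with the middle 50% between 14914 and 99620 bp. Most members were well beyond the limit, as 1705 of 2048 (83.3%) lay beyond 10 kb, 933 (45.6%) beyond 50 kb, 509 (24.9%) beyond 100 kb and 25 (1.22%) beyond 500 kb. In V2-IST-only DHSs the distances to husk DHSs had a median of 45062 bp, and 28.0% lay beyond 100 kb and 2.09% beyond 500 kb. At the limit itself, the member with the smallest gap was 5003 bp from V2-IST (chr9:84232835-84233111, 277 bp wide). The husk-only DHS just outside the set had a gap of 4996 bp (chr5:1723893-1724113, 221 bp wide). A V2-IST DHS lay within 20 kb on both sides in 80 members (3.91%) and within 100 kb on both sides in 626 (30.6%). In V2-IST-only DHSs far from husk, a husk DHS lay within these distances on both sides in 3.08% and 27.7%.

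**Figure D1:**
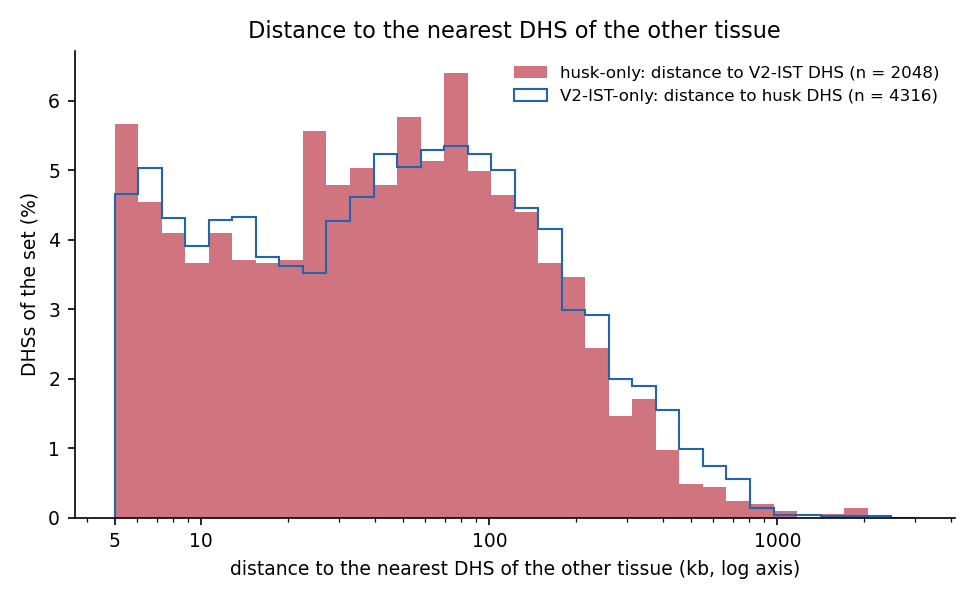
Distance (kb, log axis) of the 2048 husk-only DHSs to the nearest V2-IST DHS (filled) and of the 4316 V2-IST-only DHSs to the nearest husk DHS (line), as a share of each set (%). Both distributions begin at the limit of 5 kb and reach beyond 1000 kb, with medians of 41593 bp and 45062 bp.

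When each chromosome was divided into 10 equal parts, the 5 members farthest from V2-IST all lay in part 4 or 5. These parts held 5.08% and 4.98% of all members. They also had the fewest V2-IST DHSs, 802 and 760, which by itself favours large distances there. The farthest member was at chr7:65955448-65955735 (288 bp), 1894508 bp from the nearest V2-IST DHS and 1894434 bp from the nearest husk DHS, so that no other open site was called near it in either tissue. On chromosome 4, a pair of members shared 1 large V2-IST-free stretch. They were chr4:110789344-110790698 (1355 bp wide) and chr4:110987354-110987651 (298 bp wide), 1750271 and 1553318 bp from V2-IST and 196655 bp from each other. The other two were at chr3:85324741-85325127 (387 bp, 1729909 bp away) and at chr5:107624806-107625000 (195 bp, 1019623 bp away). Apart from the 1355 bp site, they were narrow, near or below the median width of the members.

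Members were narrow DHSs. Their median width was 366 bp (355 to 375 bp), with the middle 50% between 260 and 540 bp, against 478 bp (470 to 485 bp) in shared husk DHSs, with the middle 50% between 317 and 828 bp. Close husk-only DHSs lay between these, with a median of 412 bp (397 to 431 bp). The median was smaller in members than in shared husk DHSs on each of the 10 chromosomes, with differences of -69 bp on chromosome 2 to -140 bp on chromosome 3. Widths of at least 1000 bp were found in 112 members (5.47%, Wilson interval 4.56% to 6.54%), against 10.3% (8.60% to 12.3%) of close and 18.5% (17.8% to 19.2%) of shared husk DHSs. Under 300 bp were 35.2% of members (33.1% to 37.3%) and 21.5% of shared husk DHSs (20.8% to 22.2%). As a result the members made up 13.4% of husk DHSs by number but only 9.61% of the sequence they cover, 0.923 Mb in all. A wide DHS can touch a DHS of the other tissue more easily than a narrow one, and the part of this in the difference was not tested.

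**Figure D2:**
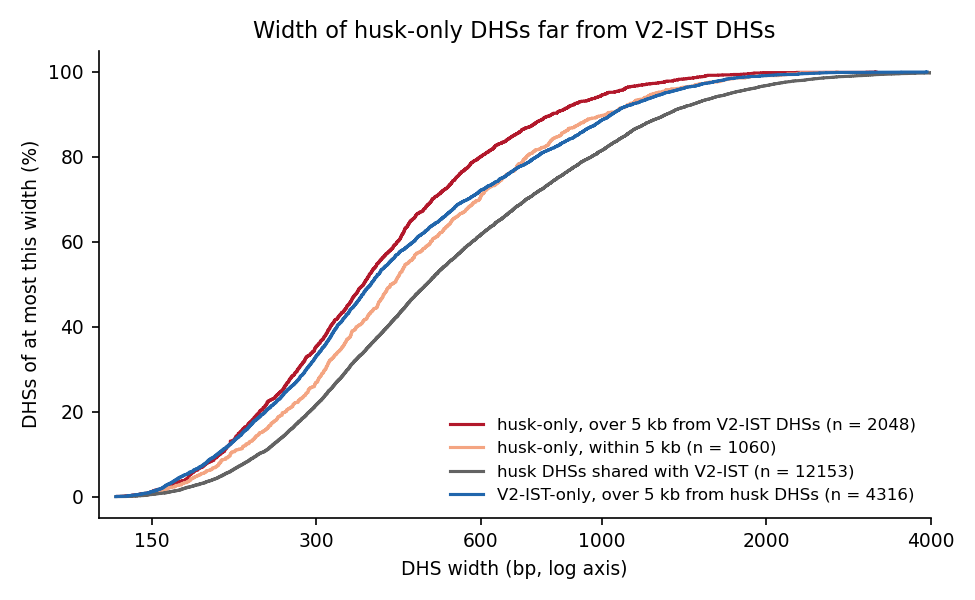
Cumulative share of DHSs (%) by width (bp, log axis) in 4 sets: the 2048 members, close husk-only DHSs, shared husk DHSs and V2-IST-only DHSs far from husk DHSs. The medians are 366, 412, 478 and 378 bp in this order, and the curve of the members lies left of both other husk sets but crosses that of V2-IST-only DHSs at the narrow end (10% of DHSs were below 200 bp in members and below 198 bp in V2-IST-only DHSs).

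The share of husk DHSs that were members differed along the width scale of husk DHSs. It was 23.1% (Wilson interval 21.1% to 25.3%) in the narrowest 10% of husk DHSs, 129 to 226 bp wide, 15.0% among those of 386 to 452 bp and 3.74% (2.89% to 4.81%) in the widest 10%, from 1227 bp upwards. Close husk-only DHSs differed less, with 8.91% among the narrowest and 3.67% among the widest. V2-IST-only DHSs far from husk had a similar median to the members, 378 bp (369 to 385 bp). They had more wide DHSs, with 11.3% (10.4% to 12.3%) of at least 1000 bp, against 5.47% of the members.

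Width was also compared with the distance to V2-IST. The median was 376 bp (356 to 424 bp) in the 343 members between 5 and 10 kb, 386.5 bp (368 to 424 bp) between 10 and 20 kb, 371.5 bp between 20 and 50 kb, 366 bp (342 to 390 bp) between 50 and 100 kb, 345 bp between 100 and 200 kb and 316.5 bp (298 to 346 bp) in the 192 members beyond 200 kb. It was thus lowest in the farthest class, but not highest in the nearest. In V2-IST-only DHSs the medians were 436 bp (405 to 463 bp) between 5 and 10 kb from husk DHSs and 335.5 bp (314 to 357 bp) beyond 200 kb. The share of members of at least 1000 bp ranged from 4.10% (100 to 200 kb) to 7.59% (10 to 20 kb) over 6 distance classes and was 6.25% beyond 200 kb.

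The widest member lay at chr5:28891344-28894518 (3175 bp). It was 5867 bp from the nearest V2-IST DHS, not far above the limit, and had another husk DHS 1046 bp away. The widest member of chromosome 8, chr8:140401346-140403615 (2270 bp), was by contrast 280713 bp from V2-IST, with a husk neighbour at 652 bp. On chromosome 6, the widest member lay near the chromosome end at chr6:664382-666177 (1796 bp), 370731 bp from V2-IST, and its nearest husk DHS was 3628 bp away. Each of these 3 sites thus had a second husk DHS within 5 kb.

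On the other chromosomes the husk neighbours of the widest member were mostly farther away. Such members lay at chr1:20411930-20413909 (1980 bp), at chr2:31706681-31708344 (1664 bp) and at chr4:185523513-185525471 (1959 bp), with husk neighbours at 112311, 137248 and 62903 bp. Further ones were found at chr3:11831475-11833214 (1740 bp) and at chr7:179821604-179823149 (1546 bp), with husk neighbours at 28172 and 29438 bp. The widest members of chromosome 9 (chr9:108229620-108231513, 1894 bp) and chromosome 10 (chr10:140514090-140515583, 1494 bp) had husk neighbours at 5485 and 1292 bp. Of the 10 widest members by chromosome, 5 lay in the first or last part and none in the central parts 5 and 6. Among all members the shares were 27.6% and 11.7%, and 10 sites are too few to show a difference.

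Next, the position of members along chromosomes was examined in the same 10 parts. In maize the arms are rich in genes and the regions around the centromeres rich in retrotransposons. The outermost parts held 566 members (27.6%, Wilson interval 25.7% to 29.6%), against 35.2% (34.3% to 36.01%) of shared husk DHSs, 37.0% (34.1% to 39.9%) of close husk-only DHSs and 34.4% (33.0% to 35.8%) of V2-IST-only DHSs far from husk. The central pair of parts held 240 members (11.7%, 10.4% to 13.2%), against 10.8% (10.2% to 11.3%) of shared husk DHSs. The members were thus less concentrated in the outermost parts than the sets beside them. The rule leaves out husk DHSs near V2-IST DHSs, of which 36.1% lay in the outermost parts, so it fixes part of this difference. The share of members there was 29.7% with a distance limit of 2 kb and 21.8% with 20 kb. Of the sequence more than 5 kb from any V2-IST DHS, 18.9% lay in the outermost and 20.7% in the central parts, and the members were therefore also counted per Mb of such sequence. It includes repeats in which reads cannot be placed uniquely and no DHS can be called, and their part in the densities and in the ratios between parts was not tested.

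Sequence more than 5 kb from any V2-IST DHS amounted to 1949 Mb, 92.6% of the 2104 Mb spanned by the lists. It held 1.05 members per Mb (1.01 to 1.10), or 1.64 per Mb when the V2-IST list was limited to its widest DHSs as above. The remaining 155 Mb, near V2-IST DHSs, held 13213 husk DHSs, or 85.1 per Mb. In the sequence far from V2-IST, member density was 1.54 per Mb (1.42 to 1.67) in the outermost parts and 0.595 per Mb (0.522 to 0.675) in the central ones, a ratio of 2.59. V2-IST-only DHSs, counted in the same way in sequence far from husk DHSs, gave 3.94 per Mb (3.74 to 4.14) and 1.17 per Mb (1.06 to 1.28), a ratio of 3.37. Within 2 Mb of a chromosome end there were 44 members (2.15%, 1.60% to 2.87%), 283 shared husk DHSs (2.33%, 2.08% to 2.61%) and 175 V2-IST-only DHSs far from husk (4.05%, 3.51% to 4.69%).

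**Figure D3:**
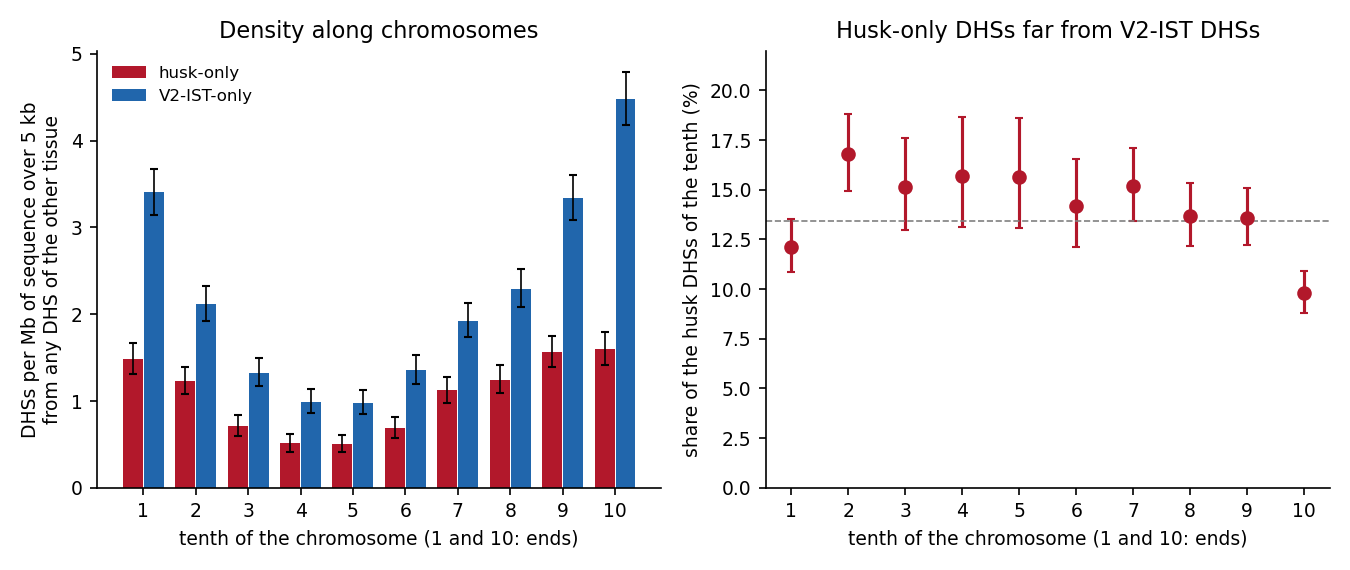
Left, DHSs per Mb of sequence more than 5 kb from any DHS of the other tissue in each part of the chromosomes, for husk-only (left bars) and V2-IST-only DHSs (right bars), with Poisson intervals. Right, members as a share of the husk DHSs of each part (%) with Wilson intervals and the share over all parts (dashed, 13.4%). Density was lowest in part 5, at 0.501 members per Mb, and part 10 had the lowest share, at 9.80%.

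Members were the smallest part of the husk DHSs in the last part. Their share of husk DHSs was 12.1% (Wilson interval 10.9% to 13.5%) in the first part and 9.80% (8.78% to 10.9%) in the last, and 13.6% to 16.8% in the 8 parts between. The interval of the first part includes the 13.4% over all parts. Sequence more than 5 kb from V2-IST DHSs made up 85.8% of part 10 and 96.7% of part 5, and its role in the shares was not tested. For V2-IST-only DHSs far from husk the shares of the V2-IST list were 22.4% in the first and 22.1% in the last part. The last part had the lowest share here too, close to part 8 at 22.2%, and part 5 had the highest at 26.4%. Median widths of the members were 379.5 bp in the outermost and 339 bp in the central parts. Shared husk DHSs measured 517 and 387 bp there, so the members had the smaller median both at the ends and in the centre.

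By chromosome, the members numbered from 141 on chromosome 9 to 320 on chromosome 1. Per Mb of the whole chromosome, not only of sequence far from V2-IST, there were 0.834 on chromosome 7 to 1.04 on chromosome 1. Their share of husk DHSs was highest on chromosome 4, at 16.4% (Wilson interval 14.6% to 18.4%), and lowest on chromosomes 9 and 7, at 11.7% (10.04% to 13.7%) and 11.8% (10.1% to 13.6%). The intervals of 9 of 10 chromosomes included the share over all chromosomes, and that of chromosome 4 lay above it. Chromosome 4 also had the highest share of V2-IST-only DHSs far from husk, at 25.8%.

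The members had few neighbours in husk. The rule excludes most shared husk DHSs from the 5 kb around a member, which shows as a step in the distances. Another husk DHS lay within 5 kb of 220 members (10.7%, Wilson interval 9.47% to 12.2%), and 200 of these had another member within 5 kb. Within 20 kb, 733 members (35.8%, 33.7% to 37.9%) had another husk DHS, against 58.5% (57.6% to 59.4%) of shared husk DHSs. With a distance limit of 20 kb in place of 5 kb, the share of members was 15.2%, as the rule then reaches as far as the neighbourhood counted. The median distance to the nearest husk DHS was 37363 bp in members and 10645 bp in shared husk DHSs. Of V2-IST-only DHSs far from husk, 47.2% (45.8% to 48.7%) had another V2-IST DHS within 20 kb, with a median distance of 23813 bp. The V2-IST list holds more DHSs, and its shared DHSs had such a neighbour in 63.5% (62.6% to 64.4%), with a median distance of 7284 bp.

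**Figure D4:**
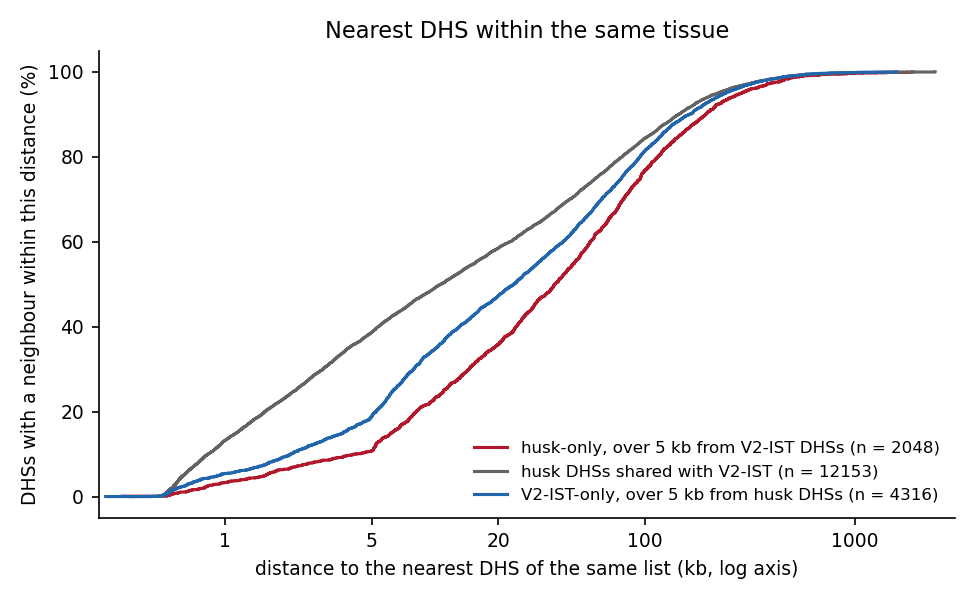
Cumulative share of DHSs (%) by distance to the nearest DHS of the same list (kb, log axis), for the 2048 members, shared husk DHSs and V2-IST-only DHSs far from husk. Within 20 kb the curves stand at 35.8%, 58.5% and 47.2%, and the steps at 5 kb come from the rule.

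Considering both tissues together, 1200 members (58.6%, Wilson interval 56.4% to 60.7%) had no DHS of either list within 20 kb, 335 (16.4%, 14.8% to 18.0%) had none within 100 kb and 12 (0.586%) had none within 500 kb. The share without a DHS within 100 kb was 16.3% (15.2% to 17.4%) in V2-IST-only DHSs far from husk. Where a member had a neighbour, its class was also recorded. The nearest husk DHS was another member in 584 cases (28.5%, 26.6% to 30.5%), against 13.4% of members in the husk list. It was a shared DHS in 1359 cases (66.4%), against 79.6% of shared DHSs in the husk list. Since the rule keeps most other husk DHSs out of the 5 kb around a member, it fixes part of the shares of 28.5% and 66.4%. For V2-IST-only DHSs far from husk, the nearest V2-IST DHS was of the same set in 41.5% (40.0% to 42.9%), against 23.3% of the V2-IST list. The nearest V2-IST DHS of a member was V2-IST-only in 647 cases (31.6%) and shared in 1401 (68.4%, 66.4% to 70.4%), against 65.4% of shared DHSs in the V2-IST list.

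Members that lie together were grouped into chains with gaps of up to 20 kb. There were 1880 chains, of which 1730 held a single member, 135 held 2, 12 held 3 and 3 held 4. In all, 318 members (15.5%, Wilson interval 14.0% to 17.2%) were in chains of at least 2. Among the V2-IST-only DHSs far from husk, 1148 (26.6%, 25.3% to 27.9%) were in such chains, of up to 5. The V2-IST set is 2.11 times as large, and a larger set gives more chains, so the shares are given side by side only.

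The 3 chains of 4 members contained no other DHS of husk and none of V2-IST. The most compact one lay at chr4:160954301-160963393, with members of 758, 219, 427 and 545 bp within 9093 bp and V2-IST DHSs no nearer than 20417 bp. The second was on the same chromosome at chr4:175599744-175611076, with members of 268, 270, 521 and 1542 bp at a distance of at least 119180 bp from V2-IST. The gaps between its members measured 551 to 5982 bp. The third, at chr10:140512441-140541536, began 8929 bp from a V2-IST DHS and held members of 357, 1494, 831 and 198 bp, the second of which was the widest member of that chromosome.

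Finally, the stretches between consecutive V2-IST DHSs were taken as units. Members occurred in 1630 such stretches, out of 12259 longer than 10 kb. In 1302 of these stretches the member was alone, 262 held 2, 52 held 3, 10 held 4 and 4 held at least 5. Thus 63.6% of members (61.5% to 65.6%) were the only member of their stretch, against 45.3% (43.9% to 46.8%) of V2-IST-only DHSs in stretches between husk DHSs. The V2-IST set is larger and its stretches over 10 kb are fewer (10821), which by number alone leaves fewer DHSs alone, so these shares too are given side by side only. The share of stretches with a member was 4.04% (3.46% to 4.72%) at 10 to 50 kb, 14.7% (13.4% to 16.1%) at 100 to 200 kb and 36.8% (33.0% to 40.7%) at 500 to 1000 kb. In longer stretches it was 35.4% (28.4% to 43.2%), with an interval that overlaps that of 500 to 1000 kb. Per Mb of sequence more than 5 kb from V2-IST, member density was 2.73 at 10 to 50 kb, 1.02 at 200 to 500 kb and 0.325 above 1000 kb. Among the 6 length classes, the longest stretches without V2-IST DHSs thus had the fewest members per Mb. The same held for V2-IST-only DHSs in stretches between husk DHSs, with 6.14 per Mb at 10 to 50 kb and 0.917 above 1000 kb. The part of repeats without uniquely placed reads in these densities was not tested. The longest stretch that held a member was at chr6:9910952-16109967. In these 6199016 bp there was 1 husk DHS, of 266 bp (chr6:10069876-10070141).

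**Figure D5:**
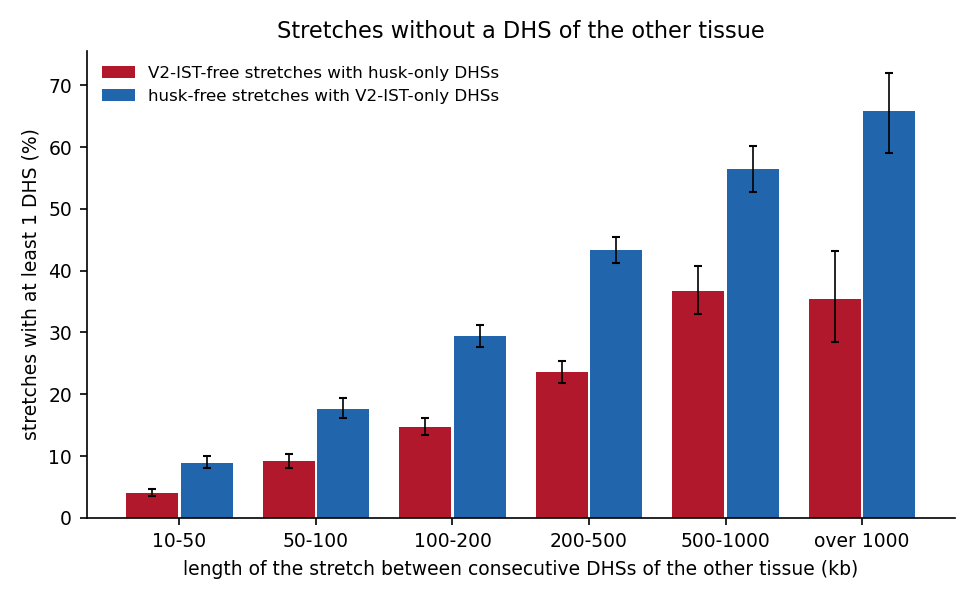
Share (%) of stretches without a DHS of the other tissue that held at least 1 DHS more than 5 kb from it, by length of the stretch (kb), with Wilson intervals. Left bars are V2-IST-free stretches with husk-only DHSs and right bars husk-free stretches with V2-IST-only DHSs. The husk share was 4.04% in the shortest class and 35.4% in the longest.

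The stretch with the most members lay at chr3:25760811-26343300, 582490 bp without a V2-IST DHS. It held 7 husk DHSs, all of them members. Their widths were 357, 397, 411, 359, 285, 415 and 402 bp, so that none reached 1000 bp. The first began at 25816981 and the last ended at 26140554. The other 3 stretches with at least 5 members were at chr4:159589339-160008191 (6 members of 305 to 894 bp), at chr4:175153193-175730256 (6 members of 186 to 1542 bp, among them the second chain) and at chr1:236150856-236541199 (5 members of 339 to 1096 bp). None of these stretches contained a husk DHS that was not a member.

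Enhancer loci and candidates with published positions were also looked up, and none of the 4 examined held a member. Members were 13.4% of all husk DHSs, so 4 loci are too few to say anything about the members. At the enhancer of b1, the gene of a transcription factor that turns on anthocyanin pigment synthesis, husk had a DHS of 830 bp (chr2:19550895-19551724) that was absent from the V2-IST list, but the nearest V2-IST DHS was 3245 bp away, below the limit. The distance limit thus left out this husk-only site. At the enhancer of tb1, which encodes a repressor of branching, and at DICE, a candidate enhancer of the defence gene bx1, husk DHSs of 416 and 1138 bp overlapped V2-IST DHSs of 393 and 1762 bp. The fourth locus, on chromosome 5, had a husk DHS of 325 bp within a V2-IST DHS of 957 bp.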

How the data were processed

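DNase-seq reads were processed by the authors. Reads were aligned with BWA, reads not mapped uniquely were removed with SAMtools (mapping quality below 20), and peaks were called in each biological replicate with MACS2 (q-value cutoff 0.001) against the naked DNA library. Technical libraries of husk were pooled beforehand. Peaks that overlapped by at least 70% between replicates were kept. The authors deposited 1 list of 3 columns per tissue, the chromosome, start and end of each DHS, without a score. Versions of these tools are not given in the sources used here. The submitters' processing notes name B73 RefGen_v3 and the methods name AGPv4. The coordinates follow AGPv4, as all 398 candidate regions of V2-IST that the study lists on that build contained a DHS of the V2-IST list. Coordinates are given 1-based.

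Gaps are counted between edges, and chromosome length was taken as the largest end in either list. The members, the limits and the rule for named regions were chosen with earlier results of these data known. The rule named the widest member of each chromosome, the 5 members farthest from V2-IST, the 3 chains with the most members, the DHSs on either side of the limit, the longest and the fullest V2-IST-free stretch, and DHSs at enhancer loci whose positions are in the study's primer list. The stretches with at least 5 members were added after their values were seen. No test was made, since the lists hold no value per replicate. The study's own counts by replicate cover all peaks and not the sets compared here. The difference in median width and the V2-IST share under lists of equal length were added after seeing the data. Alternatives were other distance limits, a minimum width of 300 bp, V2-IST DHSs limited to the widest, distances between midpoints, joining of DHSs within 1 kb, 20 parts per chromosome and other neighbour distances. The code was tested on simulated lists. Analyses ran in Python 3.11.15 with scipy 1.17.1, pandas 2.3.3 and numpy 2.4.6, and plots were drawn with matplotlib 3.10.9.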

Additional observations from a re-analysis of the deposited data

How the results depend on the processing

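The number and share of members followed the distance limit by construction. With a limit of 2 kb, members made up 16.6% of husk DHSs, 29.7% lay in the outermost parts, 45.4% had another husk DHS within 20 kb and density was 1.25 per Mb. With 10 kb these values were 11.2%, 25.04%, 26.2% and 0.930 per Mb, and with 20 kb they were 9.27%, 21.8%, 15.2% and 0.866 per Mb, with 14.3% in the central parts. With DHSs of at least 300 bp in both lists, the share was 15.7%, the median width 443.5 bp, the share with a husk neighbour 33.2% and the density 0.924 per Mb. With the widest V2-IST DHSs alone, as many as in husk, there were 3231 members (21.2%) with a median width of 313 bp and a density of 1.64 per Mb. Joining DHSs within 1 kb gave 14.1% of husk DHSs and 33.5% with a husk neighbour. With 20 parts, 14.2% of members were in the outermost and 5.81% in the central parts, which are narrower by construction. A husk neighbour was found within 5 kb for 10.7% and within 50 kb for 57.4%.

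The difference in median width between members and shared husk DHSs, added after seeing the data, was -112 bp. It stayed negative under the 7 alternatives run, from -104 to -213 bp. The value of -213 bp came with V2-IST limited to its widest DHSs. That choice takes out narrow V2-IST DHSs, and with them the overlaps of husk DHSs that met only those. It is therefore no separate support for the sign. The order of both far sets by share of their list, 13.4% in husk and 23.3% in V2-IST, did not hold with V2-IST limited to its widest DHSs. The shares were then 21.2% and 20.1%, with intervals that overlap, so a reversed order is not shown. Of 84 values recomputed for 12 results, 42 stayed within the counting interval of the reported value, or within 1.5 times a count, and 42 did not. No paired analysis was possible because the replicates of a tissue are merged into 1 list. For the same reason no replicate could be left out. No threshold above that of the authors could be applied to intervals without a peak value.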
